A study of Homo sapiens with 8 samples.

Results

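The cholesterol and lipid synthesis genes described here are 31 genes of sterol and fatty acid synthesis and of sterol export, most of them targets of the SREBP transcription factors. They were taken as a named list, chosen with earlier results of these data known. Of the 31, 28 had a probe set that carried their symbol alone. CYP51A1 and FADS1 sat only on probe sets shared with other symbols, and they and FDFT1 are not analysed here. The arrays came from U-CH1 and MUG-Chor1, established human cell lines grown from chordoma, a rare tumour of the spine and skull base with features of the notochord. Each line had 1 array of cells given 10 ng/mL recombinant human TNF-α, an inflammatory cytokine, in 3 additions a week for 1 week, and 3 arrays of control cells without it. All groups grew as monolayers on gelatin in IMDM and RPMI medium with 10% fetal bovine serum, which carries lipoproteins, so controls and TNF cells alike had cholesterol supplied from outside. Each group was drawn from 1 cell line, and each effect of TNF-α rests on 1 array per line.

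Cells make cholesterol from acetyl-CoA through mevalonate, farnesyl pyrophosphate, squalene and lanosterol. When sterol in the endoplasmic reticulum falls, SCAP carries the SREBP proteins to the Golgi, where they are cut and freed to switch on the genes of the pathway. When sterol is plentiful, INSIG proteins hold SCAP back, and oxysterols bind LXR receptors, which switch on the exporters ABCA1 and ABCG1 and the gene of SREBP-1c, the SREBP that acts most on fatty acid synthesis. Levels are given as the deposited values, taken as log2, and a difference of 1 is a doubling of signal. A gene was called where the limma test gave an adjusted p under 0.05 over all 16986 genes tested. Levels of different genes come from different probe sets and are not set against each other.

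Medians of the 8 arrays lay between 2.52 and 2.63, and the median of all deposited values was 2.57. Across genes, the mean correlation of a control with its line's other controls was 0.960 to 0.970, lowest for MUG-Chor1 control 3, against 0.932 for the MUG-Chor1 TNF array and 0.943 for that of U-CH1. The chordoma marker TBXT, the notochord transcription factor, read 7.51 with TNF-α in MUG-Chor1 and 8.80 with TNF-α in U-CH1, against 9.14 to 9.75 on the 6 controls. The labels do not say whether the controls of a line were separate cultures, so p-values measure the spread between these arrays, which may be technical.

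In the control cells the members that differed most between the lines were the sterol exporters. ABCA1 and ABCG1 were lower in MUG-Chor1 than in U-CH1, and so were the isopentenyl diphosphate isomerase IDI1 and the citrate lyase ACLY. FADS2, SC5D and LPIN1 were higher in MUG-Chor1. Of the 28 members, 3 were called higher and 4 lower, which is 25% of them, beside 18.9% of all genes tested (10.3% higher and 8.57% lower). All 3 MUG-Chor1 controls lay above all 3 of U-CH1 for 6 members and below them for 6, beside 18.1% and 18.2% of all genes. The median difference of the members, MUG-Chor1 minus U-CH1, was -0.12 on the log2 scale, and that of all genes was -0.04.

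ABCA1, the transporter that loads cellular cholesterol onto apolipoprotein A-I, read 2.83, 2.98 and 2.69 in MUG-Chor1 controls and 5.92, 7.19 and 6.41 in U-CH1 controls. The groups were far apart, and the MUG-Chor1 values lay just above the median of all deposited values. With no detection call, how far these readings stand above background is not known. The difference was -3.68 ± 0.29 (log2, SE), a level 12.8-fold lower in MUG-Chor1 (adjusted p = 2.02e-05, limma). ABCG1, which passes cholesterol on to HDL particles, read 2.86, 2.86 and 2.74 in MUG-Chor1 controls and 4.40, 4.34 and 4.79 in U-CH1 controls. Its groups did not overlap either, and it was 3.22-fold lower in MUG-Chor1 (log2 difference -1.69 ± 0.20, adjusted p = 0.000235). The MUG-Chor1 readings of ABCG1 also lay just above the median of all deposited values and are not known to stand above background.

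**Figure D1:**
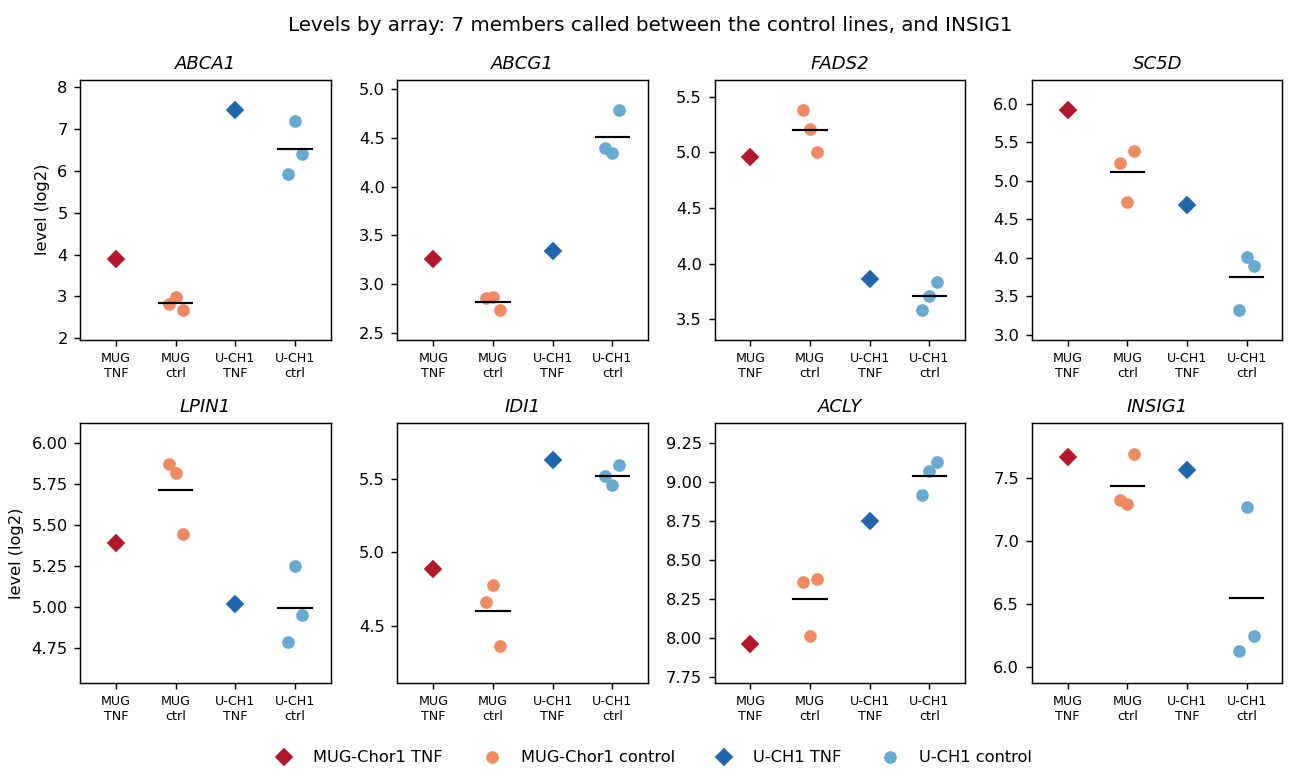
Level on each array (log2, vertical axes) of the 7 members called between the control lines and of INSIG1, with diamonds for TNF arrays, circles for controls and a bar at the control mean. ABCA1 and ABCG1 lie near 2.8 in MUG-Chor1 controls and above 4.3 in every U-CH1 control, while FADS2 and SC5D are higher in MUG-Chor1.

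Among the enzymes from acetyl-CoA to farnesyl pyrophosphate, 7 members were tested and 1 was called. IDI1, which turns isopentenyl pyrophosphate into its isomer, read 4.66, 4.78 and 4.36 in MUG-Chor1 controls and 5.51, 5.46 and 5.59 in U-CH1 controls. All 3 MUG-Chor1 values were below all 3 of U-CH1, a 1.89-fold lower level (log2 difference -0.92 ± 0.19, adjusted p = 0.00752). MVD and FDPS, which act just before and just after IDI1, had differences of -0.49 (adjusted p = 0.112) and -0.52 (adjusted p = 0.109). The other 4, ACAT2, HMGCS1, MVK and PMVK, lay between -0.43 and 0.12, with adjusted p of 0.439 to 0.967.

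Of 8 members that act between squalene and cholesterol, SC5D was the 1 called. SC5D, the desaturase that puts in the double bond of 7-dehydrocholesterol, read 5.23, 4.72 and 5.39 in MUG-Chor1 controls and 3.32, 4.00 and 3.90 in U-CH1 controls. The groups were separate, and SC5D was 2.58-fold higher in MUG-Chor1 (log2 difference 1.37 ± 0.25, adjusted p = 0.00371). DHCR7, the reductase that acts on the product of SC5D, had a difference of -0.72 (adjusted p = 0.123). The other 6, SQLE, LSS, MSMO1, NSDHL, HSD17B7 and EBP, lay between -0.63 and 0.59.

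None of the 4 regulators and carriers was called between the lines. INSIG1, the SREBP target that holds SCAP in the endoplasmic reticulum, read 7.32, 7.30 and 7.69 in MUG-Chor1 controls and 6.13, 7.27 and 6.24 in U-CH1 controls. The 3 MUG-Chor1 values were above those of U-CH1, but U-CH1 control 2 came just under the lowest of them, and the adjusted p was 0.0601 for a difference of 0.89. Without U-CH1 control 2 the difference was 1.25 (adjusted p = 0.00607), and without MUG-Chor1 control 3 it was 0.76 (adjusted p = 0.135). Over 14 other settings the adjusted p of INSIG1 reached 0.204 (limma). SREBF2, the gene of the SREBP that acts most on sterol synthesis, read 5.82, 5.56 and 6.11 in MUG-Chor1 controls and 5.26, 5.47 and 5.34 in U-CH1 controls, a difference of 0.48 (adjusted p = 0.135). SREBF1, the gene of SREBP-1, read 5.02, 4.71 and 4.43 against 3.98, 5.09 and 4.25, and STARD4, a cytosolic sterol carrier, 6.07, 5.76 and 6.10 against 5.33, 6.27 and 5.74. Both overlapped between the lines (adjusted p = 0.567 for SREBF1 and 0.650 for STARD4).

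Of the 7 fatty acid genes, FADS2 and LPIN1 were called higher and ACLY lower in MUG-Chor1. FADS2, the desaturase at the start of polyunsaturated fatty acid synthesis, read 5.38, 5.21 and 5.0 in MUG-Chor1 controls and 3.59, 3.71 and 3.83 in U-CH1 controls. With no overlap, it was 2.80-fold higher in MUG-Chor1 (log2 difference 1.49 ± 0.19, adjusted p = 0.000455). LPIN1, a phosphatidate phosphatase of triglyceride synthesis, read 5.87, 5.82 and 5.45 in MUG-Chor1 controls and 4.79, 5.25 and 4.95 in U-CH1 controls (log2 difference 0.71 ± 0.21, adjusted p = 0.0376). This call was the least stable of the 7 and was lost without U-CH1 control 1 or 3 or MUG-Chor1 control 1 or 2, with an adjusted p of up to 0.134 without MUG-Chor1 control 1.

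ACLY, the enzyme that makes cytosolic acetyl-CoA from citrate, read 8.36, 8.02 and 8.38 in MUG-Chor1 controls and 8.92, 9.07 and 9.13 in U-CH1 controls, 1.73-fold lower in MUG-Chor1 (log2 difference -0.79 ± 0.19, adjusted p = 0.0166). Without MUG-Chor1 control 2 its adjusted p was 0.0841. SCD, the desaturase that makes oleate, read 9.44, 8.99 and 8.45 in MUG-Chor1 controls and 9.23, 9.65 and 9.72 in U-CH1 controls. Its groups overlapped (log2 difference -0.57, adjusted p = 0.171). ELOVL6, an elongase of saturated fatty acids, had a difference of 0.80 (adjusted p = 0.0564), and the carboxylase ACACA and the synthase FASN had differences of -0.23 and -0.01.

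**Figure D2:**
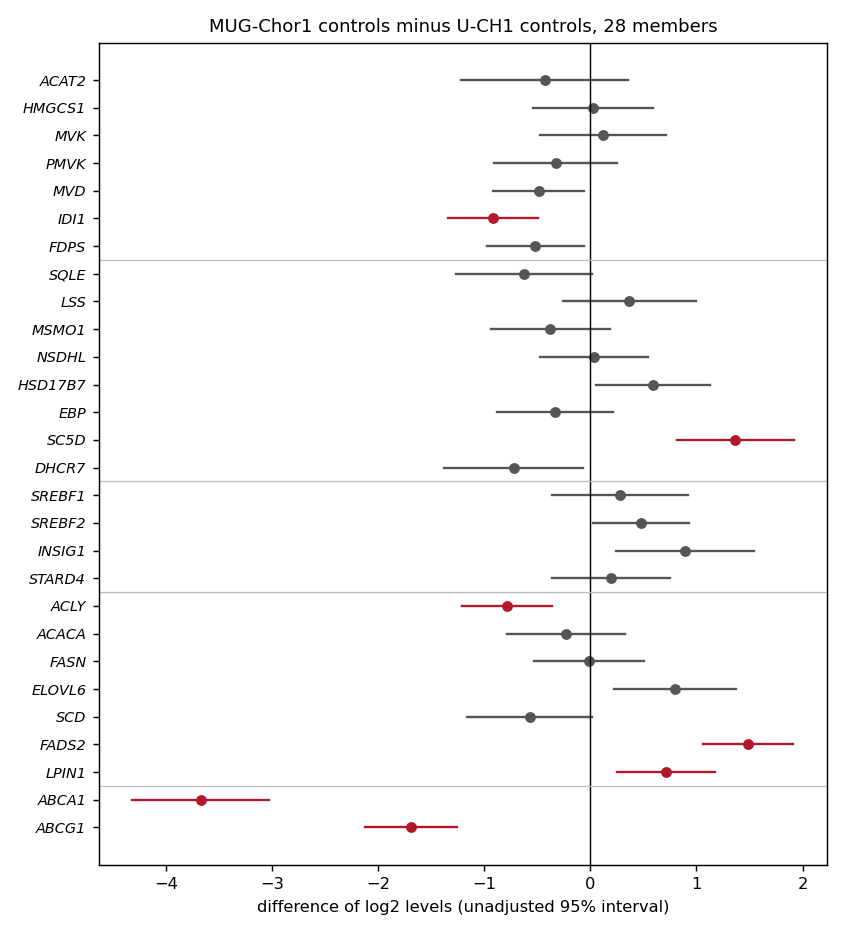
Difference of log2 levels between the control lines, MUG-Chor1 minus U-CH1 (horizontal axis), for the 28 members in order of role, with unadjusted 95% intervals, red where the adjusted p is under 0.05. ABCA1 at -3.68 and ABCG1 at -1.69 lie furthest to the left, and FADS2 at 1.49 and SC5D at 1.37 furthest to the right.

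Markers of other cell types were read beside these differences. The summed linear signal of 7 adipocyte markers was 65.6 to 143 on MUG-Chor1 controls and 45.3 to 50.1 on U-CH1 controls. The gap came mainly from FABP4, which also serves other cells and read 5.90, 6.49 and 4.47 in MUG-Chor1 controls and 1.37, 1.82 and 2.49 in U-CH1 controls, while the adipocyte hormone ADIPOQ read 1.80 to 2.29 in MUG-Chor1 controls and 1.77 to 3.49 in U-CH1 controls, and LEP stayed under 2.57 on every array. Of 6 leukocyte markers measured, PTPRC and CD3E read 0.93 to 1.94 on all 8 arrays, and CD68, which other cells also make, read 7.67 to 8.25 on the controls. No leukocyte marker was called between the lines, with a difference of 0.62 for LYZ (adjusted p = 0.147) and -0.43 for ITGAM (adjusted p = 0.144). The 5 endothelial markers summed to 118 to 211 on MUG-Chor1 controls and 44.3 to 59.7 on U-CH1 controls, mainly through KDR, while CDH5 stayed under 2.78. The 6 fibroblast markers summed to 114 to 277 on MUG-Chor1 controls and 607 to 934 on U-CH1 controls, most of it LUM, which was lower in MUG-Chor1 (-2.34, adjusted p = 0.00185), while PDGFRB was higher (1.23, adjusted p = 0.00848). In bulk RNA, fewer cells of a type and less RNA per cell cannot be told apart, and the part of these signals in the members' differences was not tested.

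Promoter sequence is shown for 4 members: ABCA1, which differed most between the lines, SREBF2, the gene of the main regulator, and SC5D and FDPS. The last 2 were among 5 sterol enzymes, none of them called, whose TNF arrays lay above all controls in both lines. RefSeq windows (GRCh38.p14) of 250 bases before a gene's start were held for 26 of the 31 members, in 37 windows. No window of FDFT1, SQLE, FASN, ACAT2 or ABCG1 was searched. SC5D had 2 windows, and the window of lower coordinate is shown. A set of 6 motifs was searched on both strands: the sterol regulatory element first found in the LDL receptor promoter, the direct repeat bound by LXR, the CCAAT box bound by NF-Y, a GC box read as GGGCGG, an E-box read as CACGTG and a TATA box read as TATAAA. Capitals mark a match to any of them on either strand, and no matches overlapped in the 4 windows shown.
ABCA1, chr9:104928156-104928405, minus strand: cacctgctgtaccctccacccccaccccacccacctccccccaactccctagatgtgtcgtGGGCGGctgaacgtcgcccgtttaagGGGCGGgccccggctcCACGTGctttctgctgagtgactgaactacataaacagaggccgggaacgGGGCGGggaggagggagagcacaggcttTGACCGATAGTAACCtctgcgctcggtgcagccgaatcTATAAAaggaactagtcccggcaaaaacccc
SC5D, chr11:121292521-121292770, plus strand: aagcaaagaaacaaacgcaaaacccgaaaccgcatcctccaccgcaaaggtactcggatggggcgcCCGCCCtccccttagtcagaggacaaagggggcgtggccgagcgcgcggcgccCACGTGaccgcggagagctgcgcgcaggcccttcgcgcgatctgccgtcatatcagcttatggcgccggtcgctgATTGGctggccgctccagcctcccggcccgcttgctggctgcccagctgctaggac
FDPS, chr1:155308616-155308865, plus strand: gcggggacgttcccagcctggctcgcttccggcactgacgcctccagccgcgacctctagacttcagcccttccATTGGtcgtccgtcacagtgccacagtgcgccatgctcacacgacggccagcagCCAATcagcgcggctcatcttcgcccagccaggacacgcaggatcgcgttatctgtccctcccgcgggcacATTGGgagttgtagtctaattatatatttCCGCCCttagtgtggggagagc
SREBF2, chr22:41832855-41833104, plus strand: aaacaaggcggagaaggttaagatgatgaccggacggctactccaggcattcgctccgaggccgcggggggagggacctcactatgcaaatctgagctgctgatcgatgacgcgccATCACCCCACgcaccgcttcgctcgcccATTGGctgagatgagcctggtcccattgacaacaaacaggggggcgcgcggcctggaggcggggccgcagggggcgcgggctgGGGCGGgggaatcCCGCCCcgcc

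The ABCA1 window held the LXR repeat on the strand opposite to the gene, at positions -69 to -55 from the start, an E-box, 3 GC boxes and a TATA box. It was the 1 member window of 37 with that repeat, which 0.216% of all 35116 RefSeq windows searched held. The windows searched did not cover every chromosome. The SREBF2 window held the sterol regulatory element at positions -134 to -125, the 1 such match among member windows, beside 0.125% of all windows. The CCAAT box was in 22 of the 37 member windows (59.5%), beside 32.0% of all windows, and in 12 of the 14 sterol synthesis genes with a window, beside 37.0% of all genes. The GC box was in 32 of 37 (86.5%, beside 42.6%), the E-box in 4 (10.8%, beside 6.34%) and the TATA box in 3 (8.11%, beside 10.7%). These matches describe the letters of these windows and are not binding sites.

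With TNF-α, none of the 28 members was called in MUG-Chor1, in U-CH1 or across both lines. Most of the sterol synthesis enzymes among them read higher than the mean of their line's controls. Of the 15 sterol enzymes tested, 12 lay above that mean in MUG-Chor1 and 12 in U-CH1. Their log2 differences had a median of 0.39 for MUG-Chor1 and 0.34 for U-CH1. The standard errors of single members ran from 0.27 to 0.50. Over all genes the medians were 0.06 (MUG-Chor1) and 0.04 (U-CH1), and 56.7% and 53.7% of genes lay above their control mean. The 7 tested genes of sterol synthesis and uptake outside the list did not lean the same way. In MUG-Chor1, 1 of them lay above its control mean and 6 below (median -0.37). In U-CH1, 3 lay above and 4 below (median -0.05).

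The 0 calls stood beside 2.88% of all genes called in MUG-Chor1 (1.47% higher, 1.41% lower), 1.27% in U-CH1 (0.913% and 0.359%) and 2.48% across both lines (limma). At an unadjusted p under 0.05, 4 members were higher and 1 lower in MUG-Chor1, beside 7.45% and 5.17% of all genes. In U-CH1 the counts were also 4 and 1, beside 6.99% and 3.80%, and across both lines 5 and 0, beside 9.87% and 5.45%. Over all 28 members the median difference was 0.32 in MUG-Chor1, 0.15 in U-CH1 and 0.19 across both lines. In U-CH1 this median was 0.31 without control 2. A log2 change of 1 in either direction was outside the unadjusted 95% interval for 5 of 28 members in MUG-Chor1 and 11 of 28 in U-CH1, and for the rest the interval reached at least that far on 1 side.

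**Figure D3:**
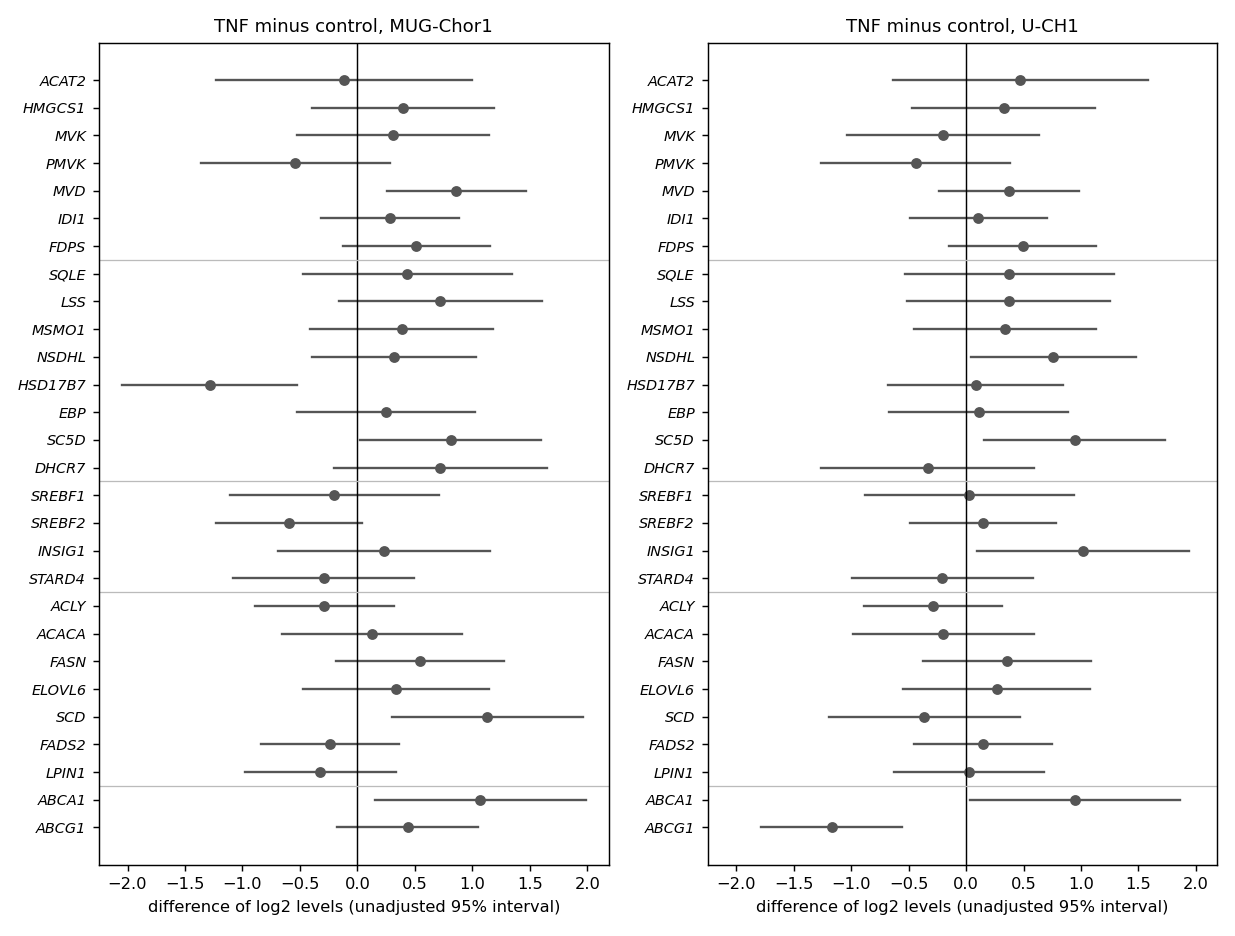
Difference of log2 levels, TNF array minus the mean of the line's 3 controls (horizontal axes), for the 28 members in MUG-Chor1 (left) and U-CH1 (right), with unadjusted 95% intervals from the limma fit. None passes the adjusted threshold, and most sterol enzymes lie to the right of 0 in each line.

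Single TNF arrays leave the range of 3 controls often, so the members were counted beside all genes. The TNF array was above all 3 controls for 14 of 28 members in MUG-Chor1, beside 35.3% of all genes, and for 11 of 28 in U-CH1, beside 30.8%. It was below all 3 for 7 in MUG-Chor1, beside 23.9%, and for 4 in U-CH1, beside 23.4%. It was above all controls in both lines for 6 members (21.4%, beside 15% of all genes): MVD, IDI1, FDPS, NSDHL, SC5D and ABCA1. It was below in both lines for PMVK and ACLY, 2 members (7.14%, beside 8.85%). By sign alone, 14 members were higher in both lines, 3 lower in both and 11 split.

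In the first steps of the pathway, MVD, which decarboxylates mevalonate pyrophosphate, read 6.15 on the MUG-Chor1 TNF array, against 5.26, 5.17 and 5.43 on its controls. It also read 6.15 on that of U-CH1, against 5.78, 5.97 and 5.57. Both TNF values stood above every control of their line, by a log2 difference of 0.86 ± 0.27 in MUG-Chor1 (adjusted p = 0.166) and 0.37 ± 0.27 in U-CH1 (adjusted p = 0.732). FDPS, the farnesyl pyrophosphate synthase, read 3.96 against 3.56, 3.49 and 3.28 in MUG-Chor1 and 4.46 against 3.99, 4.22 and 3.68 in U-CH1. Its differences were close, 0.51 and 0.49, and across both lines 0.50 ± 0.20 (adjusted p = 0.241). IDI1 read 4.88 (MUG-Chor1) and 5.63 (U-CH1) on the TNF arrays, 0.28 and 0.11 above the control means.

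PMVK, the phosphomevalonate kinase, went the other way in sign, at 5.21 on the TNF array against 5.29, 6.02 and 5.95 in MUG-Chor1 and 5.64 against 6.25, 5.65 and 6.34 in U-CH1. Its lowest controls lay close to the TNF values, and the differences of -0.54 and -0.44 were not called (adjusted p = 0.660 and 0.784). ACAT2, the acetoacetyl-CoA thiolase, read 6.04 on the U-CH1 TNF array against 5.18, 5.72 and 5.80, a difference of 0.47 ± 0.50. In MUG-Chor1 it read 5.02 against 4.65, 4.70 and 6.06, where control 3 stood apart. HMGCS1 and MVK had differences of 0.40 and 0.31 in MUG-Chor1 and 0.33 and -0.20 in U-CH1.

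Past squalene, SC5D had the smallest p across both lines of all members. It read 5.92 on the MUG-Chor1 TNF array against 5.23, 4.72 and 5.39, and 4.69 on the U-CH1 TNF array against 3.32, 4.00 and 3.90. Both TNF values were above all controls of their line, by 0.81 ± 0.35 in MUG-Chor1 (adjusted p = 0.372) and 0.94 ± 0.35 in U-CH1 (adjusted p = 0.334). Across both lines the difference was 0.88 ± 0.24, 1.84-fold, with an adjusted p of 0.0907. NSDHL, which takes part in removing the C4 methyl groups, read 5.17 against 5.16, 4.55 and 4.84 in MUG-Chor1 and 5.58 against 4.79, 4.55 and 5.11 in U-CH1. The U-CH1 difference was 0.76 ± 0.32 (adjusted p = 0.422), while in MUG-Chor1 the TNF value passed the highest control only narrowly.

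HSD17B7, a reductase that also acts in C4 demethylation, read 1.84 on the MUG-Chor1 TNF array against 3.23, 2.85 and 3.29, the largest downward difference of any member in MUG-Chor1 (-1.29 ± 0.34, adjusted p = 0.0900). In U-CH1 it read 2.62 against 2.31, 3.01 and 2.27, inside the range of the controls (0.09 ± 0.34). These readings lie around the median of all deposited values, and the genome holds pseudogenes of HSD17B7 that a probe set may also read, so the gene is uncertain. Of the other 5 past squalene, LSS, SQLE, MSMO1 and EBP had positive differences in both lines, from 0.25 to 0.72 in MUG-Chor1 and from 0.11 to 0.38 in U-CH1. DHCR7 was split, at 0.72 in MUG-Chor1 and -0.33 in U-CH1.

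The 4 regulators and carriers had no common direction. INSIG1 read 7.57 on the U-CH1 TNF array against 6.13, 7.27 and 6.24, above all controls, with a difference of 1.02 ± 0.42 (adjusted p = 0.387). In MUG-Chor1 it read 7.67 against 7.32, 7.30 and 7.69, inside the controls (0.23 ± 0.42). SREBF2 read 5.24 on the MUG-Chor1 TNF array against 5.82, 5.56 and 6.11, below all controls (-0.60 ± 0.29, adjusted p = 0.440), and 5.51 on the U-CH1 TNF array against 5.26, 5.47 and 5.34 (0.15 ± 0.29). SREBF1 read 4.51 (MUG-Chor1) and 4.47 (U-CH1) on the TNF arrays, within the controls of each line. STARD4 read 5.68 and 5.57 there, with differences of -0.29 and -0.21.

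Among the 7 fatty acid genes, SCD had the largest positive difference of any member in MUG-Chor1. It read 10.09 on the MUG-Chor1 TNF array against 9.44, 8.99 and 8.45, above all controls (1.13 ± 0.38, adjusted p = 0.190). On the U-CH1 TNF array it read 9.17 against 9.23, 9.65 and 9.72, below all controls (-0.36 ± 0.38, adjusted p = 0.842). The difference between the lines' effects was 1.49 ± 0.53 and was not called (adjusted p = 0.437). FASN, the fatty acid synthase, had differences of 0.54 ± 0.33 in MUG-Chor1 and 0.36 ± 0.33 in U-CH1. ACLY read 7.96 against 8.36, 8.02 and 8.38 in MUG-Chor1 and 8.75 against 8.92, 9.07 and 9.13 in U-CH1, a difference of -0.29 in each. FADS2 and LPIN1 had differences of -0.24 and -0.32 in MUG-Chor1 and of 0.15 and 0.02 in U-CH1.

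The exporters included the member with the largest gap between the lines' TNF differences, ABCG1. ABCA1 read 3.90 on the MUG-Chor1 TNF array against 2.83, 2.98 and 2.69, and 7.46 on the U-CH1 TNF array against 5.92, 7.19 and 6.41. Both TNF values were above all controls of their line, by 1.07 ± 0.41 in MUG-Chor1 (adjusted p = 0.286) and 0.95 ± 0.41 in U-CH1 (adjusted p = 0.440). Across both lines ABCA1 was 2.01-fold higher in value (1.01 ± 0.28) with an adjusted p of 0.0964, and without U-CH1 control 2 the difference of 1.18 was called (adjusted p = 0.0276). No other left-out array gave a call for ABCA1, and over 15 other settings its difference ran from 0.88 to 1.18. ABCG1 read 3.26 on the MUG-Chor1 TNF array against 2.86, 2.86 and 2.74, above its controls. On the U-CH1 TNF array it read 3.34 against 4.40, 4.34 and 4.79, below its controls. The U-CH1 difference was -1.17 ± 0.28, 2.25-fold lower in value (adjusted p = 0.0830), and the MUG-Chor1 difference 0.44 ± 0.28 (adjusted p = 0.618). The effects differed between the lines by 1.61 ± 0.39, which was not called (adjusted p = 0.152).

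No member was called for a difference of TNF effects between the lines, beside 0.53% of all genes (limma). At an unadjusted p under 0.05, ABCG1 and SCD were higher and HSD17B7 lower in MUG-Chor1 relative to U-CH1, beside 3.41% and 3.95% of all genes. The HSD17B7 difference was -1.37 ± 0.49 (adjusted p = 0.436). Standard errors of these differences ran from 0.38 to 0.71, and only 2 of the 28 intervals lay within a log2 difference of 1 on either side of 0.

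**Figure D4:**
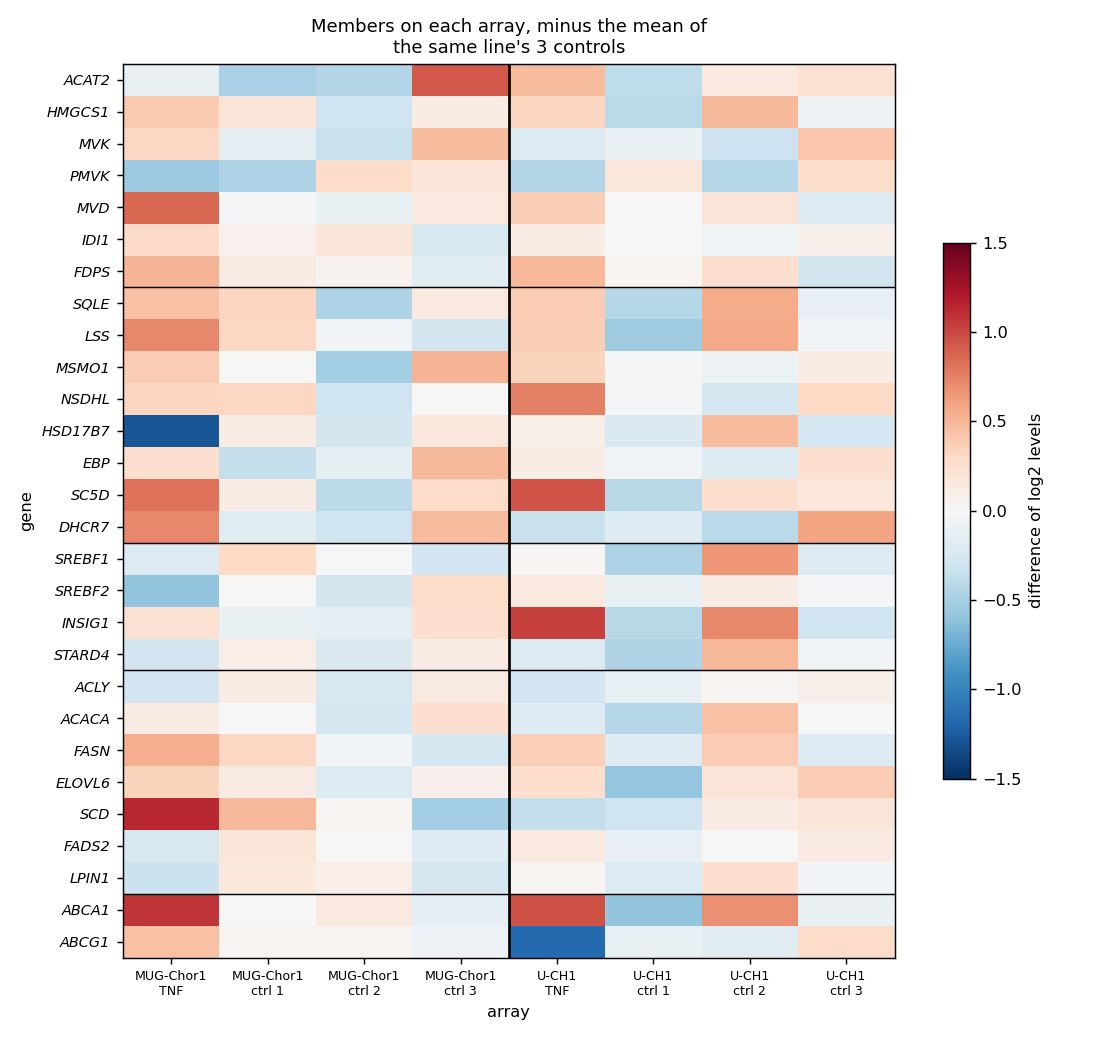
Each member's log2 level minus the mean of the same line's 3 controls (colour, from -1.5 to 1.5), with the TNF array left of the controls within each line and members in order of role. The TNF columns are red for most sterol enzymes, and U-CH1 control 1 and MUG-Chor1 control 2 are blue for most members.

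Controls of 1 line also differed from each other in these genes. In MUG-Chor1 control 2 was the lowest of the 3 controls for 15 of 28 members (53.6%, beside 33.4% of all genes). In U-CH1 control 1 was the lowest for 17 (60.7%, beside 34.4%) and the highest for 0, while control 2 was the highest for 15 (53.6%, beside 30.6%), INSIG1, SREBF1, SQLE, LSS and ABCA1 among them. The median range over 3 controls was 0.54 for members and 0.41 for all genes in MUG-Chor1, and 0.65 and 0.48 in U-CH1. The mean deviation of the members from their line's controls was 0.21 on the MUG-Chor1 TNF array, against -0.15 to 0.09 on the controls, and 0.16 on the U-CH1 TNF array, against -0.24 to 0.18. For the 15 sterol synthesis enzymes alone it was 0.27 on the MUG-Chor1 TNF array, against -0.21 to 0.22, and 0.25 on the U-CH1 TNF array, against -0.17 to 0.09. On this measure the U-CH1 TNF array lay within its controls for all members and above them for the sterol enzymes, and the MUG-Chor1 TNF array above its controls for both.

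Other genes moved with the TNF arrays and are given beside the members. A check list of TNF-induced genes held CCL2, CCL5, TNFAIP3, ICAM1, VCAM1 and NFKBIA. Their mean, relative to the line's controls, was 3.45 on the MUG-Chor1 TNF array. The MUG-Chor1 controls lay from -0.40 to 0.73, the highest being control 3. On the U-CH1 TNF array the mean was 3.36, against -0.05 to 0.07. NFKBIA did not rise in MUG-Chor1 (log2 difference -0.15). The mean of 14 G2/M genes, relative to the line's controls, was -1.26 on the MUG-Chor1 TNF array, against -0.59 to 0.70 on its controls, and -0.02 on the U-CH1 TNF array, against -0.40 to 0.27. The lowest control on this measure was control 2 in both lines. The mean of the 6 chordoma markers was -2.03 on the MUG-Chor1 TNF array, against -0.12 to 0.10, and -0.58 on the U-CH1 TNF array, against -0.25 to 0.14. The summed adipocyte markers were 45.7 on the MUG-Chor1 TNF array, against 65.6 to 143, and 45.7 on the U-CH1 TNF array, against 45.3 to 50.1. The endothelial markers summed to 48.0 against 118 to 211 in MUG-Chor1 and to 48.2 against 44.3 to 59.7 in U-CH1. The fibroblast markers summed to 1658 against 114 to 277 in MUG-Chor1, mainly through LUM, and to 841 against 607 to 934 in U-CH1. The leukocyte markers summed to 599 against 286 to 325 in MUG-Chor1 and to 389 against 226 to 284 in U-CH1, almost all of it CD68. Across both lines CD68 (0.84, adjusted p = 0.0485) and ITGAM (0.83, adjusted p = 0.0448) were higher with TNF-α. CD14 had differences of 0.75 in U-CH1 and -0.02 in MUG-Chor1, neither of them called. LYZ had differences of 0.07 in U-CH1 and -0.36 in MUG-Chor1, also not called. PTPRC read 1.14 and 0.93 on the TNF arrays. The part of these other genes in the members' values was not tested.

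A further 77 genes of the same pathways, none of them members, were listed, and 59 were tested. Between the control lines 6 were higher and 6 lower in MUG-Chor1, 20.3% of them, close to the 18.9% of all genes (10.3% higher and 8.57% lower). ELOVL2, which lengthens polyunsaturated fatty acids, read 1.86, 2.12 and 2.65 in MUG-Chor1 controls and 6.34, 6.27 and 6.70 in U-CH1 controls, lower by a log2 difference of -4.23 ± 0.24 (adjusted p = 2.02e-06). The MUG-Chor1 readings lay around the median of all values and are not known to stand above background. It thus ran opposite to FADS2, which acts before it. ELOVL7, another elongase, was higher by 2.07 (adjusted p = 0.00119), as was GPAM, the first enzyme of glycerolipid synthesis, by 1.36 (adjusted p = 0.00515), while DGAT2, the last enzyme of triglyceride synthesis, was lower, at -1.12 (adjusted p = 0.00791). The HDL receptor SCARB1 was lower (-1.35, adjusted p = 0.00154), as were LPCAT3, an acyltransferase of membrane phospholipids and an LXR target (-1.0, adjusted p = 0.0344), and TMEM97 (-1.06, adjusted p = 0.00684). NPC1, which moves cholesterol out of lysosomes, was higher (0.84, adjusted p = 0.0237), as were ERLIN1 (0.78, adjusted p = 0.0170) and FAXDC2 (0.90, adjusted p = 0.0434). Calls lost without single controls were those of FAXDC2 (any but U-CH1 control 3, adjusted p of up to 0.138), LPCAT3 (U-CH1 control 2 or 3, MUG-Chor1 control 1 or 2, up to 0.118), NPC1 (U-CH1 control 1 or 2, MUG-Chor1 control 1 or 3, up to 0.0865) and ERLIN1 (U-CH1 control 2 or MUG-Chor1 control 1, up to 0.0777).

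With TNF-α, 3 of the 59 were called higher across both lines (5.08%) and 0 lower, beside 1.55% and 0.93% of all genes. ACSL5, which activates long-chain fatty acids, read 3.72 on the MUG-Chor1 TNF array against 2.71, 2.36 and 2.94, and 3.84 on the U-CH1 TNF array against 2.49, 2.59 and 2.43. It was above all controls in both lines (1.19 ± 0.20, adjusted p = 0.0132). SCARB1 read 6.09 against 5.37, 4.88 and 4.91 in MUG-Chor1 and 7.38 against 6.16, 6.52 and 6.52 in U-CH1 (1.01 ± 0.20, adjusted p = 0.0308). NPC1 read 8.85 against 7.72, 7.30 and 7.97 in MUG-Chor1 and 7.64 against 6.63, 6.85 and 7.0 in U-CH1 (1.00 ± 0.22, adjusted p = 0.0426). For both genes too, each TNF value stood above every control of its line. The ACSL5 call was lost without either TNF array, with an adjusted p of up to 0.0988. The SCARB1 call was lost without either TNF array, U-CH1 control 1 or MUG-Chor1 control 2 (up to 0.201), and the NPC1 call without either TNF array or control 1 or 2 of either line (up to 0.343).

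In MUG-Chor1 alone, 1 of the 59 was called with TNF-α (1.69%, beside 2.88% of all genes), and in U-CH1 alone 0 (beside 1.27%). CH25H, the enzyme that makes the oxysterol 25-hydroxycholesterol, read 4.32 on the MUG-Chor1 TNF array against 2.11, 1.89 and 1.57, a rise with a log2 difference of 2.46 ± 0.30 (adjusted p = 0.00161). On the U-CH1 TNF array it read 1.80 against 1.81, 1.43 and 1.77, within its controls. All controls of both lines were under 2.57, the median of all values, so CH25H was tested only because of the MUG-Chor1 TNF array, and its control readings are not known to stand above background. At an unadjusted p under 0.05, 11 of the 59 were higher and 2 lower in MUG-Chor1, beside 7.45% and 5.17% of all genes, and 5 and 0 in U-CH1, beside 6.99% and 3.80%. The smallest p in U-CH1 was that of ACSL5 (1.33, adjusted p = 0.0568).

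**Figure D5:**
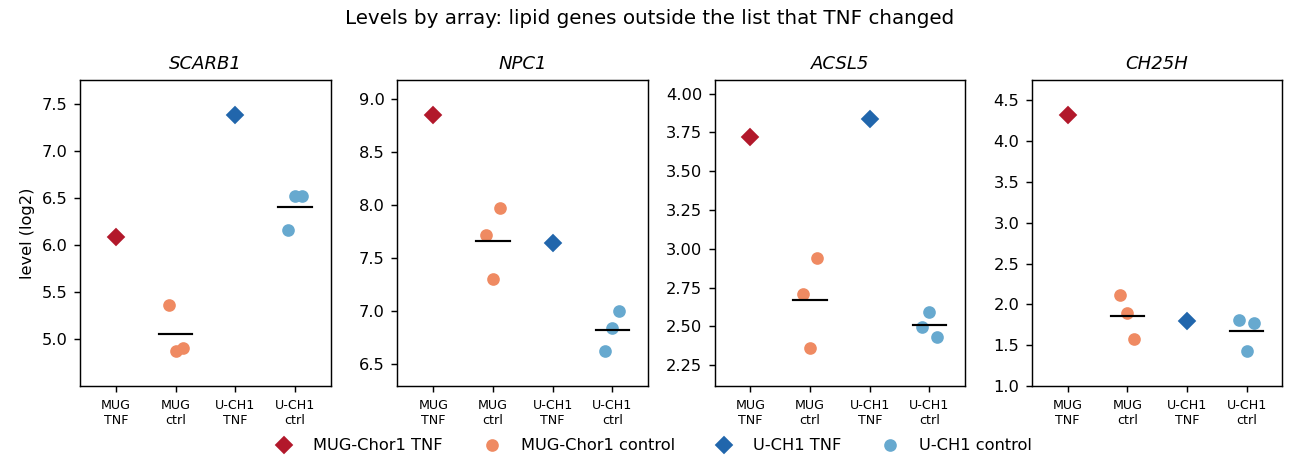
Level on each array (log2, vertical axes) of the 4 pathway genes outside the list that were called with TNF-α, with diamonds for TNF arrays, circles for controls and a bar at the control mean. SCARB1, NPC1 and ACSL5 are above all controls on both TNF arrays, while CH25H is at 4.32 on the MUG-Chor1 TNF array and at 1.80 on the U-CH1 TNF array.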

How the data were processed

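Whole-transcript arrays gave RNA levels in 6 control and 2 TNF samples. The deposited table holds 1 log2 value per probe set and array (53617 probe sets); RMA and Transcriptome Analysis Console were used by the authors, per the submitters' processing notes. The sources used here do not state the log base, which was read as log2 from RMA and the range of 0.0648 to 12.7. RMA as usually run makes arrays alike in distribution, and sorted values lay a median of 0.024 from their mean, so no further normalization was applied. Arrays have no depth, and precision is limited by their number. The array's genome build was not stated either.

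Of the probe sets, 23871 had 1 symbol, 1842 several and 27904 were not listed in the platform annotation; Entrez identifiers updated 90 symbols through RefSeq (GRCh38.p14). The brightest probe set stood for each of 22395 genes, and each measured member had 1. Genes above 2.57, the median of all values, on at least 1 array were tested, 16986 in all. Tests used limma 3.58.1 in R 4.3.3, two-sided, with Benjamini-Hochberg adjustment. Group contrasts came from 4 group means over 8 arrays (4 residual degrees of freedom), in which a single TNF array is assumed to vary like the controls, and TNF across both lines from a model with terms for line and TNF (5 residual degrees of freedom). Intervals are unadjusted 95% limits. The script was tested on simulated data.

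The members and all lists were chosen with earlier results of these data known. Members called in any comparison, the regulators, SCD, ABCA1 and ABCG1 are given on every array, others by ranges or, for the 2 largest differences per role and TNF contrast, by values. Of other pathway genes, up to 4 called per list were named, or that of smallest p.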

Additional observations from a re-analysis of the deposited data

Results flagged for a closer look

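CH25H, the cholesterol 25-hydroxylase, differed between the lines in its TNF effect by 2.33 ± 0.43 (log2, MUG-Chor1 minus U-CH1, adjusted p = 0.0472, limma). The effects were 2.46 (MUG-Chor1) and 0.13 (U-CH1), each from 1 TNF array. The gene entered the test only through the MUG-Chor1 TNF array, at 4.32, since every other array read under 2.57, and with no filter on dim genes the adjusted p was 0.0560. The adjusted p was over 0.05 in 7 of 11 other settings, among them each left-out control other than MUG-Chor1 control 3, up to 0.117 without U-CH1 control 1, while the difference ran from 2.19 to 2.46. The rise in MUG-Chor1 was called in the 12 other settings that kept the gene. All of these settings used the same TNF array, so they cannot show whether its reading would repeat.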

How the results depend on the processing

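No called value changed sign in any setting tried. ABCA1, ABCG1, FADS2, SC5D and IDI1 were called between the control lines in all 14 settings, with ABCA1 from -3.97 to -3.33. LPIN1 was lost in 5 of 14, under quantile normalization too (adjusted p = 0.0572), and ACLY in 1. Over left-out controls the count of members called between the lines was 5 to 9. Leaving out MUG-Chor1 control 2 gave 5. Leaving out MUG-Chor1 control 3 gave 9, with ACAT2 and DHCR7 gained, and leaving out U-CH1 control 2 also gave 9, with HSD17B7 and INSIG1 gained. With TNF-α, 0 members were called in any setting except as follows. At an adjusted p under 0.10, 1 was called in U-CH1 (ABCG1), 1 in MUG-Chor1 (HSD17B7) and 2 across both lines (ABCA1 and SC5D). With 1 array left out, 0 to 1 was called across both lines. The median TNF difference over left-out controls ran from 0.095 to 0.31 in U-CH1, the higher without control 2, and from 0.18 to 0.39 in MUG-Chor1, and the median difference of effects from -0.07 to 0.15. The cause of these shifts was not tested. Same-numbered controls of the lines did not deviate together (r = 0.0426, -0.0571 and 0.163). With the number as a replicate block, in controls only, 8 members were called, with DHCR7 gained (adjusted p = 0.0307), against 7 without the block. CH25H gave no value under the filter on the mean, which removed it. TNF changes rest on 1 array per line, any array batch shared by TNF arrays alone could not be separated from TNF, and low readings have no detection call, so changes of dim genes may be understated.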
